A study of Mus musculus with 2 samples.

Results

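The immediate-early transcription factor genes of the AP-1, Egr and Nr4a families were followed across the cells of mouse pancreatic tumors. The set held 10 genes of the 32285 in the deposited tables, chosen by symbol: Fos (ENSMUSG00000021250), Fosb (ENSMUSG00000003545), Jun (ENSMUSG00000052684), Junb (ENSMUSG00000052837), Jund (ENSMUSG00000071076), Egr1 (ENSMUSG00000038418), Atf3 (ENSMUSG00000026628), Nr4a1 (ENSMUSG00000023034), Nr4a2 (ENSMUSG00000026826), Nr4a3 (ENSMUSG00000028341). All 10 were matched. The rule that chose them uses no measured value, but it was set with earlier results of these data known. Single-cell libraries came from K210 tumors, a line derived from pancreatic cancer of mice with Trp53 fl/fl and Pdx1-Cre among their alleles, implanted into the pancreas of male C57BL/6J mice bought at 5 to 6 weeks of age. PBS was the control treatment. The other treatment was cmExoaCD11b, exosomes with a CD11b antibody whose load was cGAMP, an activator of STING, and mRNA of IL-12, given into the peritoneum every 3 days from day 7. Cells were taken 48 h after treatment, digested with collagenase, and each treatment was 1 library of cells pooled from 3 mice, so no difference below has a replicate check and no p-value is given.

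Immediate-early genes are switched on within minutes of a stimulus, before any new protein is made. Fos and Fosb pair with Jun, Junb or Jund to form AP-1, which binds DNA and turns on genes of activation, survival and inflammation. Egr1 is a zinc-finger factor downstream of MAP kinase signals, Atf3 is a stress-induced factor that represses inflammatory genes, and Nr4a1, Nr4a2 and Nr4a3 are orphan nuclear receptors. In T cells the Nr4a genes follow antigen receptor signals and are known for their part in exhaustion and tolerance, and in phagocytes they restrain inflammatory genes. Many of these genes are also known to respond to the enzymatic digestion that frees cells from a tissue.

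In macrophages, described below, the ratios of cmExoaCD11b to PBS were above 1 for the Nr4a genes and below 1 for the Fos and Jun genes. The counting interval of Fosb included 1. In monocytes and in both neutrophil classes the Nr4a genes did not move together. Their start regions are shown together with that of Fos for comparison. RefSeq promoters of GRCm38.p6 were matched by symbol for 9 of the 10 genes, all but Egr1. Each line gives the 250 bases before the transcription start, 5′ to 3′ on the strand of the gene. Capitals mark the short CRE, which binds CREB and ATF factors, written TGACG or, on the other strand, CGTCA.
Nr4a1 (chr15:101266596-101266845, plus strand): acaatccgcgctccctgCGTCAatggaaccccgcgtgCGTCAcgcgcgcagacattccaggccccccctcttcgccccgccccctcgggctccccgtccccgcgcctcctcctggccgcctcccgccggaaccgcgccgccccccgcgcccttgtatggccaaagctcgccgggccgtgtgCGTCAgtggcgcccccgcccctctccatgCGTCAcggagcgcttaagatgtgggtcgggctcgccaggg
Nr4a2 (chr2:57124004-57124253, minus strand): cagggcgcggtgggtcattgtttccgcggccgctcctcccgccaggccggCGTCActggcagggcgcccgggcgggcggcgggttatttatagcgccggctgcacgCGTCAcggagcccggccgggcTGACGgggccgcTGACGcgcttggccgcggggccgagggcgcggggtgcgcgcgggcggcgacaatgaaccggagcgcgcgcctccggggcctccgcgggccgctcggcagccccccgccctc
Nr4a3 (chr4:48045055-48045304, plus strand): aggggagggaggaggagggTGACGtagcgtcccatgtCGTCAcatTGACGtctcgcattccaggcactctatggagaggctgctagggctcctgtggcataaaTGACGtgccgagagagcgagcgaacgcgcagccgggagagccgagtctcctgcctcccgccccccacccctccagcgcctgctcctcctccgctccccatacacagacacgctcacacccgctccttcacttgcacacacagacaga
Fos (chr12:85473640-85473889, plus strand): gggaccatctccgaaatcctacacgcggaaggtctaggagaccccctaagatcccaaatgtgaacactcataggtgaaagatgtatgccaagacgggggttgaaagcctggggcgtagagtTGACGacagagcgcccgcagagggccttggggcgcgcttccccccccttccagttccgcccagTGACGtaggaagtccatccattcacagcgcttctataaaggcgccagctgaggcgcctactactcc

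Each Nr4a start region held 4 short CREs, and that of Fos held 2. Over the same 250 bases, 17.8% of 32851 promoters held at least 1 and 0.137% held 4 or more. Fosb, Junb and Atf3 held 1 each, whereas Jun and Jund held 0, so 7 of the 9 matched genes had a match. The short CRE contains CG, and the base composition differed among these windows, with 58.4% G and C in Fos, 63.6% in Nr4a3, 74.4% in Nr4a1 and 80.0% in Nr4a2. The full CRE, TGACGTCA, of which the short CRE is a part, was in none of the 9 windows and in 1.55% of all promoters. None of the 9 windows held the AP-1 site TGANTCA, the Nr4a site AAAGGTCA or a CArG box, found in 6.75%, 1.34% and 1.47% of all promoters. The EGR site, GCGGGGGCG or GCGTGGGCG, was in the windows of Fosb and Nr4a1 and in 3.06% of all promoters. These are matches of letters in both strands, and no binding was measured. Sites outside these 250 bases, and any site of Egr1, were not searched.

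After removal of empty droplets and doublets, 6835 PBS and 7075 cmExoaCD11b cells were kept, with 50650189 and 62340867 UMIs and medians of 3471 and 4107 UMIs per cell. A UMI marks 1 captured transcript, and levels are given as CPM, a gene's UMIs scaled to the same total in every class and library. Cells were sorted into classes by UMIs of marker genes fixed for each lineage. Neutrophils were gated by genes such as S100a8, S100a9 and Csf3r, and were called immature when they also passed a gate of granule genes such as Camp, Ngp and Ltf. In PBS and cmExoaCD11b these gates gave 1230 and 1874 immature neutrophils, 3079 and 2237 other neutrophils, 100 and 145 monocytes, 276 and 79 macrophages, 132 and 341 CD8 T cells, 132 and 232 CD4 T cells, 115 and 300 T cells with neither or both co-receptors, and 217 and 242 B cells. The leading genes of most classes included markers of their own gate (Ngp, Camp, Vcan, Ccr2, C1qa, Cd8b1, Cd4, Pax5), which the gate itself brings about. Leading genes outside the gates included Marco in macrophages, Gzmk in CD8 T cells, Cd40lg in CD4 T cells and Ighd in B cells. Those of the T cells with neither or both co-receptors included Trdc, a gamma delta T cell gene, Il2ra and Ikzf2. They also included Il4, Izumo1r and Tnfrsf4, which were leading genes of the CD4 T cells too. This class had medians of 3043 and 3234.5 UMIs per cell, against 4965 and 4531 in CD4 T cells. A T cell whose co-receptor UMIs were not captured falls into it, and the share of such cells was not tested. The 10 leading genes of the other neutrophils held the chemokine gene Cxcl3 but none of the gate's markers. Cells that passed gates of more than 1 lineage (7.1% and 7.96%) or no gate (13% and 9.95%) were left out. Those without a gate differed between the libraries, with 18388 and 8800 CPM of the 10 genes together and medians of 0.479% and 4.66% mitochondrial UMIs. The 2 libraries shared 15 cell barcodes among kept cells, 0.219% and 0.212% of each.

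Neutrophils outside the immature gate stood apart in both libraries (plot of summed levels by class). The 10 genes together made up 26729 CPM in PBS and 23396 CPM in cmExoaCD11b neutrophils, or 2.67% and 2.34% of all their UMIs. In PBS this was 2.88 times the level of the next class, macrophages, and 6.64 times that of CD8 T cells. In cmExoaCD11b it was 2.83 times the level of the next class, T cells with neither or both co-receptors, and 4.31 times that of B cells. Macrophages held 9268 and 7781 CPM, monocytes 8107 and 6559, T cells with neither or both co-receptors 6958 and 8264, immature neutrophils 6422 and 7175, B cells 5304 and 5428, CD4 T cells 4995 and 6105, and CD8 T cells 4025 and 6746 CPM. Below the neutrophils, neighbors in the order of mean level overlapped, except that both values of immature neutrophils lay above both of CD4 T cells. RNA in empty droplets held 13237 and 10367 CPM of the 10 genes, above the values of every class described except the neutrophils.

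**Figure D1:**
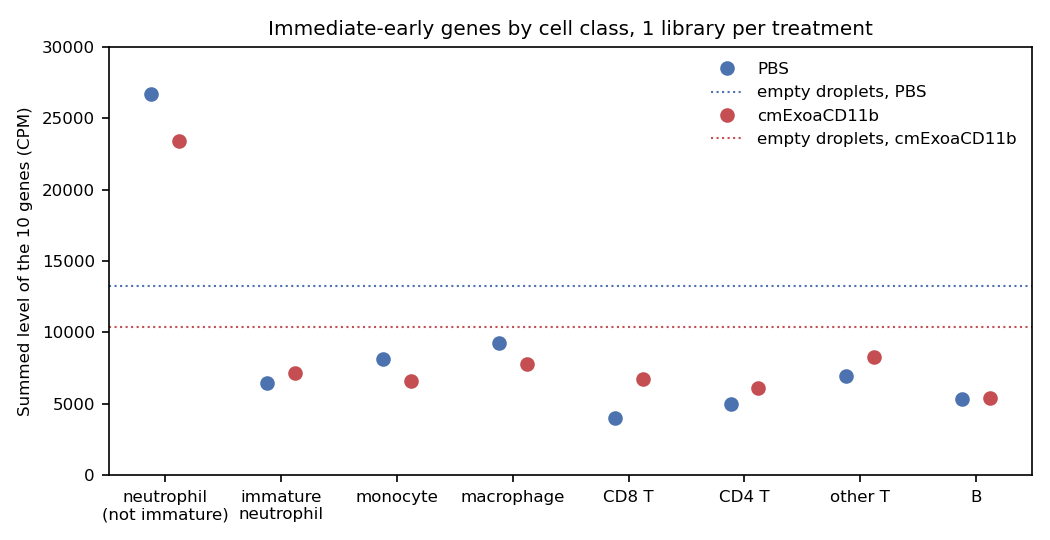
Summed level of the 10 immediate-early genes (CPM, linear axis from 0) in each cell class, with 1 point per library (blue PBS, red cmExoaCD11b) and dotted lines for empty droplets. Neutrophils outside the immature gate sit at 26729 and 23396 CPM, and none of the other 7 classes passes 9268 CPM.

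Neutrophils were also highest at equal depth, which is again a share of UMIs. They held few UMIs, with means of 3219 and 3030 per cell, against 16054 and 15965 in immature neutrophils. Unscaled, the 10 genes had 264890 UMIs in 3079 PBS neutrophils and 126815 in 1230 immature ones, so fewer per neutrophil. In cmExoaCD11b they had 158597 UMIs in 2237 neutrophils and 214665 in 1874 immature ones. With each cell thinned to 1000 UMIs, a neutrophil held a median of 23 UMIs of the 10 genes in PBS and 22 in cmExoaCD11b, with quartiles of 13 and 38, and of 12 and 34. The median was 7 and 7 in immature neutrophils, 8 and 6 in monocytes, 8 and 7 in macrophages, 3 and 5 in CD8 T cells, 3 and 5 in CD4 T cells, 4 and 7 in T cells with neither or both co-receptors, and 4 and 4 in B cells. Neutrophils without any of these UMIs were rare, at 0.171% (0.0556% to 0.399%, exact 95% interval, n = 2919) and 0.29% (0.106% to 0.63%, n = 2070). Cells without any made up 11.5% of PBS CD8 T cells (6.55% to 18.2%, n = 131) and 6.82% of those from cmExoaCD11b (4.38% to 10.1%, n = 337). Intervals here and below cover counting error only.

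The genes did not share 1 order of classes (map of levels). Fos, Fosb, Jun, Junb, Jund, Egr1, Atf3 and Nr4a1, 8 of the 10, were highest in neutrophils in both libraries among the 8 classes. Junb reached 7332 CPM in PBS and 6262 CPM in cmExoaCD11b neutrophils, against at most 2078 CPM in the other 7 classes. Egr1 reached 2021 and 1817 CPM there and at most 449 CPM in those 7. Atf3 was at 2080 and 1396 CPM in neutrophils, at 939 and 845 CPM in monocytes and at 892 and 804 CPM in macrophages, and at no more than 202 CPM in the other 5 of these classes. For Atf3, monocytes and macrophages could not be ordered, since their values overlapped. Immature neutrophils, the precursors of this class, held 141 and 138 CPM of Atf3 and 255 and 384 CPM of Egr1.

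Nr4a1 had a narrow range of levels, between 177 CPM in PBS CD4 T cells and 409 CPM in cmExoaCD11b neutrophils. Nr4a2 had another order. Among the 8 classes it was highest in CD8 T cells, at 310 CPM in PBS (275 to 350) and 571 CPM in cmExoaCD11b (534 to 610), and next in T cells with neither or both co-receptors, at 107 and 369 CPM, whose range overlapped that of the CD8 T cells. Neutrophils held 25.7 and 17.4 CPM of Nr4a2, and immature neutrophils held 9.12 and 5.35 CPM, below the 42.8 and 59.7 CPM of empty droplets. Among the 8 classes Nr4a3 was also highest on average in CD8 T cells (83.6 and 222 CPM). Neighbors in its order of mean level overlapped, except for the immature neutrophils, which were lowest at 8.46 and 15.6 CPM. B cells, at 52.7 and 30.5 CPM, lay below both values of CD8 T cells.

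**Figure D2:**
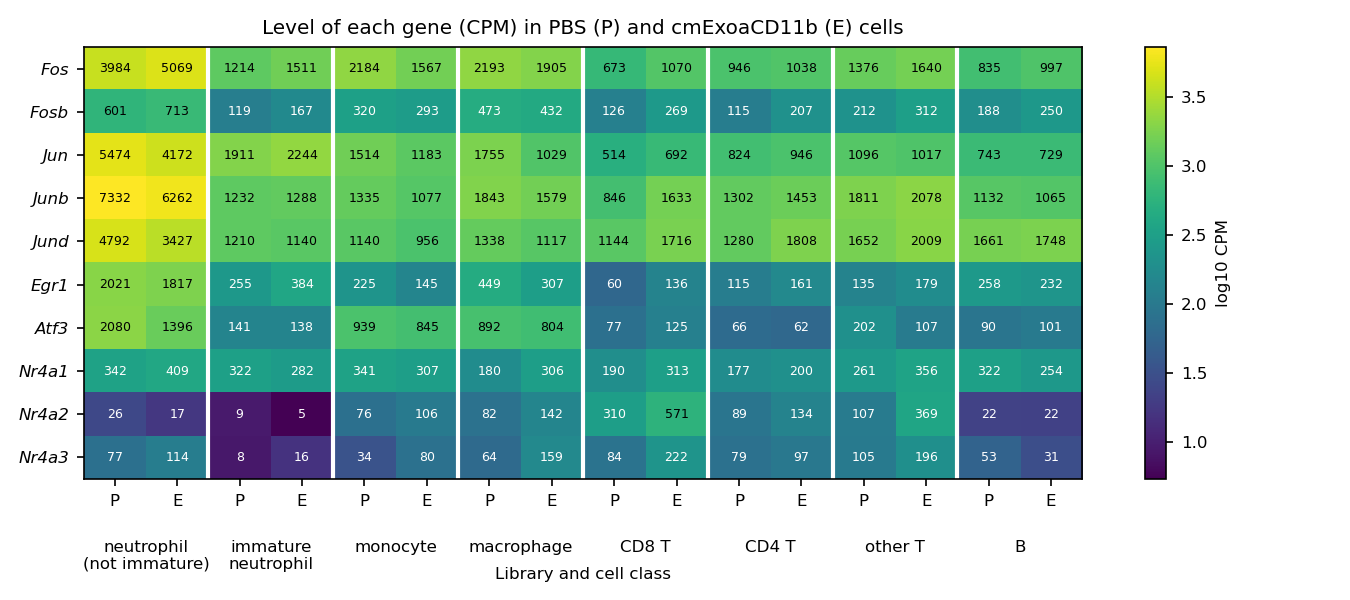
Level of each of the 10 genes in CPM, printed in each cell and coloured by log10 CPM, for PBS (P) and cmExoaCD11b (E) libraries in 8 cell classes. The brightest columns are the neutrophils, with Junb at 7332 and 6262 CPM, while Nr4a2 is highest in CD8 T cells at 310 and 571 CPM.

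Over the 16 class and library values, log2(CPM + 1) of Jun and Egr1 had a Pearson r of 0.9, Fos and Fosb of 0.86, and Jun and Nr4a2 of -0.58. These are descriptions, since values of 1 library share its cells and its free RNA. The genes most like a member over the same 16 values, among 10350 genes with at least 200 UMIs, were Dusp1 (r = 0.965), Gm34455 (0.957) and Zswim4 (0.953) for Fos, and Ier5 (0.957), Sde2 (0.948) and Gm36660 (0.943) for Egr1. For Atf3 they were Bcl2l11 (0.969), Slc49a4 (0.962) and Soat1 (0.961). For Nr4a1 the highest values were lower, with Ankrd13a (0.788), Foxo3 (0.768) and Frat2 (0.755). Dusp1 and Ier5 are themselves immediate-early genes.

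Cells with Fos held Jun more often than cells without it in monocytes, neutrophils and CD8 T cells. Among cells thinned to 1000 UMIs, Jun was found in 86.7% of PBS monocytes with Fos (75.4% to 94.1%, n = 60) and in 35.9% of those without (21.2% to 52.8%, n = 39). In cmExoaCD11b monocytes the shares were 71.4% (n = 84) and 41.4% (n = 58). Neutrophils gave 87.1% (n = 2219) and 73.4% (n = 700) in PBS, and 85.4% (n = 1708) and 66.3% (n = 362) in cmExoaCD11b. CD8 T cells gave 48.8% (n = 43) and 26.1% (n = 88) in PBS, and 52.4% (n = 143) and 28.9% (n = 194) in cmExoaCD11b. Macrophages gave 67.8% (60.4% to 74.6%, n = 177) and 63.7% (53.0% to 73.6%, n = 91) in PBS, and 68.3% (51.9% to 81.9%, n = 41) and 33.3% (18% to 51.8%, n = 33) in cmExoaCD11b. Nr4a3 was found in 22.6% of cmExoaCD11b CD8 T cells with Nr4a1 (14.2% to 33.0%, n = 84) and in 7.91% of those without (4.9% to 11.9%, n = 253). Cells of 1 library share their handling, so these shares describe 2 libraries.

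To compare the treatments, the ratio of CPM in cmExoaCD11b to CPM in PBS was taken in each class, with an exact 95% interval from the UMI counts. A gene was called when its ratio was at least 2-fold in either direction and it had at least 50 UMIs over both libraries. Of the 80 pairs of a gene and a class, 79 had 50 UMIs, the exception being Nr4a2 in B cells with 23 and 24 UMIs. The ratio was called higher in 6 pairs and lower in 0. Over all genes with 50 UMIs in these classes, 3.72% of 55641 pairs were called higher and 2.78% lower. The interval lay above 1 in 40 pairs, below 1 in 24 and included 1 in 15.

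CD8 T cells were the class in which all 10 genes were higher with cmExoaCD11b, each with its interval above 1 (plot of ratios by class). Fos was at 673 CPM in PBS and 1070 CPM in cmExoaCD11b (ratio 1.59, 1.44 to 1.75). Fosb was at 126 and 269 CPM (2.13, 1.72 to 2.66). Jun was at 514 and 692 CPM (1.35, 1.2 to 1.51). Its partners Junb and Jund, at 846 and 1144 CPM in PBS, were at 1633 and 1716 CPM in cmExoaCD11b (1.93, 1.78 to 2.1, and 1.5, 1.39 to 1.62). Egr1 was at 59.6 and 136 CPM (2.28, 1.68 to 3.16), and Atf3 at 76.7 and 125 CPM (1.63, 1.22 to 2.18). The Nr4a receptors were at 190 and 313 CPM for Nr4a1 (1.64, 1.37 to 1.97), 310 and 571 CPM for Nr4a2 (1.84, 1.6 to 2.12), and 83.6 and 222 CPM for Nr4a3 (2.65, 2.06 to 3.47).

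In CD8 T cells 3 of 10 genes were thus called higher, Fosb, Egr1 and Nr4a3, and 0 lower, where 4.7% of the 6070 genes with 50 UMIs were called higher and 3.05% lower. The median log2 ratio of the 10 genes was 0.8, beside 0.09 over all those genes. Thinned to 1000 UMIs, Egr1 was found in 6.11% of PBS cells (2.67% to 11.7%, n = 131) and 13.6% of cmExoaCD11b cells (10.2% to 17.8%, n = 337), Nr4a2 in 22.1% (15.4% to 30.2%) and 33.5% (28.5% to 38.8%), and Fos in 32.8% (24.9% to 41.6%) and 42.4% (37.1% to 47.9%). Unthinned, these shares were 22.7% and 31.7% for Egr1, 46.2% and 55.7% for Nr4a2, and 60.6% and 69.8% for Fos. Atf3 was not in more cells, with 6.87% (3.19% to 12.6%) and 4.75% (2.74% to 7.6%) thinned, or 22.0% and 16.1% unthinned, although its CPM was higher. These calls changed with the choice of cells and of depth. Egr1 ended below 2-fold in 5 of 9 alternatives, with 1.36 after thinning and 1.51 among all barcodes of at least 1000 UMIs. Fosb was at 1.73 to 1.76 in those barcodes, without removal of doublets and with at most 10% mitochondrial UMIs, and Nr4a3 was at 1.47 after thinning and 1.8 when each cell counted the same. In each alternative that gave a value all 10 ratios stayed above 1. PBS CD8 T cells were deeper, with means of 6614 and 4466 UMIs per cell, and the part of depth in the ratios without thinning was not tested.

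**Figure D3:**
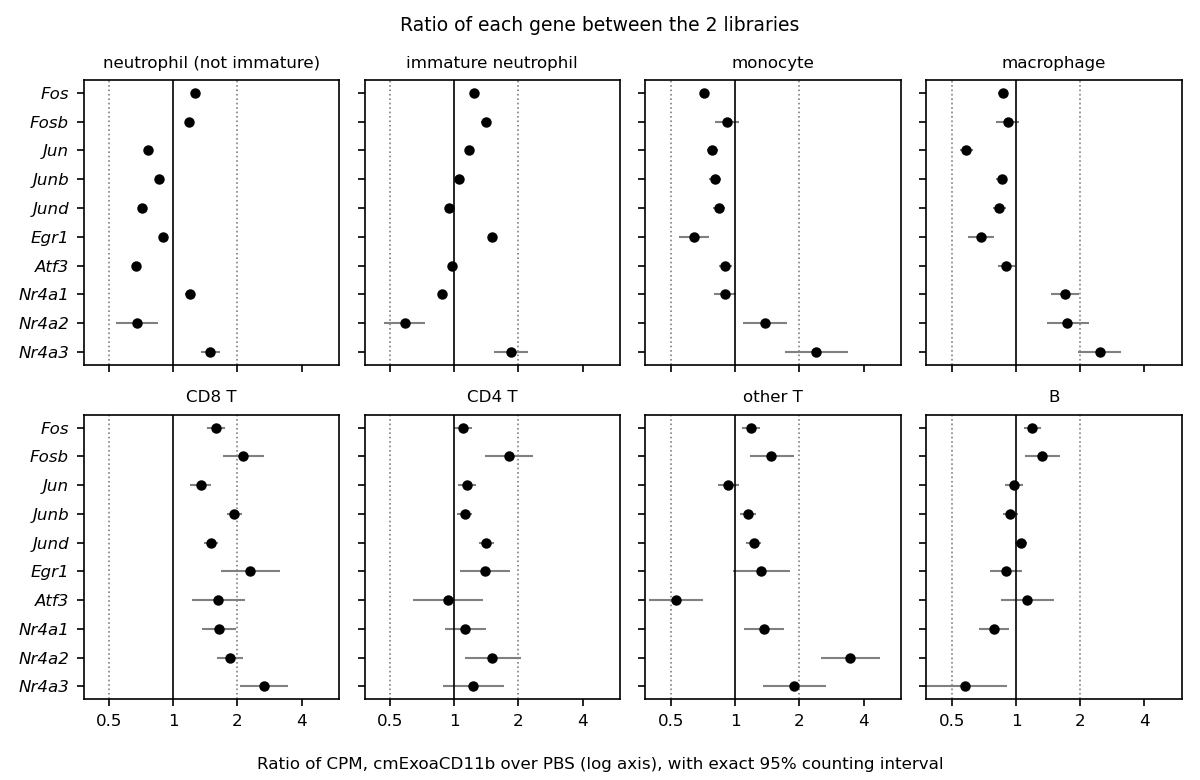
Ratio of CPM in cmExoaCD11b to CPM in PBS (log axis) for each gene in 8 cell classes, with points for genes with at least 50 UMIs, bars for exact 95% counting intervals, dotted lines at 2-fold, 1 library per treatment. All 10 points lie right of 1 in CD8 T cells, while in macrophages only Nr4a1, Nr4a2 and Nr4a3 do.

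The difference in CD8 T cells was present in cells with cytotoxic granule genes, in a division chosen after the data were seen. Cells with a UMI of Gzma, Gzmb, Gzmk or Prf1 were 71.2% of PBS (94 cells) and 84.5% of cmExoaCD11b CD8 T cells (288 cells). In them the 10 genes summed to 3691 and 6971 CPM, a ratio of 1.89 (1.81 to 1.97), and 5 of 10 were at least 2-fold higher: Fos (2.03), Junb (2.08), Fosb (2.42), Nr4a3 (3.19) and Egr1 (3.24). Of the 5526 genes with 50 UMIs in these cells, 6.77% were at least 2-fold higher and 3.58% lower. In the 38 and 53 cells without such a UMI the sums were 5405 and 5365 CPM, a ratio of 0.993 (0.909 to 1.08). There Fos was at 1182 and 778 CPM (0.658, 0.532 to 0.812), whereas Nr4a2 was at 218 and 417 CPM (1.92, 1.29 to 2.89) and Nr4a3 at 153 and 276 CPM (1.81, 1.12 to 2.99). The difference between these ratios was not tested, and 26 and 59 UMIs of Nr4a3 stand behind the last. Without cells that held a UMI of the cycling genes Mki67, Top2a, Ccnb1 or Birc5, the summed ratio was 1.39 (1.32 to 1.45), with Jun at 1.04 (0.905 to 1.19), Fosb at 2.14, Nr4a3 at 2.39 and Egr1 at 1.51.

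**Figure D4:**
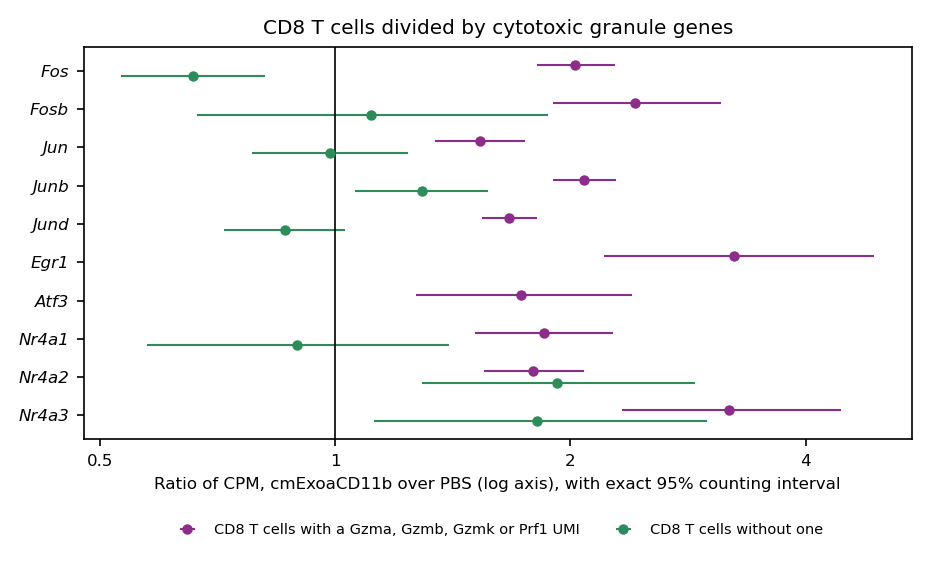
Ratio of CPM in cmExoaCD11b to CPM in PBS (log axis) in CD8 T cells with (purple) and without (green) a UMI of a cytotoxic granule gene, with exact 95% counting intervals, for genes with at least 50 UMIs, 1 library per treatment. All 10 purple points lie right of 1, with Egr1 at 3.24, while green Fos lies at 0.658.

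In summed CPM, CD4 T cells and T cells with neither or both co-receptors had smaller median ratios than CD8 T cells. With cells thinned to equal depth, CD8 and CD4 T cells had the same medians of the 10 genes, 3 and 5 UMIs. The means were 4.87 and 7.38 UMIs in CD8 T cells and 4.83 and 6.86 in CD4 T cells. They were 6.52 and 9.05 UMIs in T cells with neither or both co-receptors. A smaller rise than in CD8 T cells is therefore not read at equal depth, and it was not tested. In CD4 T cells the 10 genes had a median log2 ratio of 0.25, beside 0.06 over all genes, and 0 were called higher or lower (2.88% and 1.13% of 5482 genes were). Fosb was at 115 and 207 CPM (1.8, 1.4 to 2.34), Nr4a2 at 88.7 and 134 CPM (1.51, 1.12 to 2.05), and Jund at 1280 and 1808 CPM (1.41, 1.31 to 1.53). Egr1 was at 115 and 161 CPM (1.4, 1.07 to 1.83), Jun at 824 and 946 CPM (1.15, 1.04 to 1.27) and Junb at 1302 and 1453 CPM (1.12, 1.03 to 1.21). The intervals of Fos (1.1), Atf3 (0.934), Nr4a1 (1.13) and Nr4a3 (1.23) included 1.

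Nr4a2 had the largest ratio of the 79 pairs, in T cells with neither or both co-receptors. It was at 107 CPM in PBS (78.0 to 143, 45 UMIs) and 369 CPM in cmExoaCD11b (334 to 407, 408 UMIs), a ratio of 3.45 (2.53 to 4.8) that stayed between 2.93 and 3.78 in 10 alternatives. Thinned, it was in 10.0% of cells (5.1% to 17.2%, n = 110) and 23.3% (18.6% to 28.7%, n = 287), or 20.9% and 38% unthinned. Nr4a3 was at 105 and 196 CPM (1.88, 1.35 to 2.66), and Nr4a1 at 261 and 356 CPM (1.36, 1.1 to 1.7). The ratio was 1.19 for Fos, 1.47 for Fosb, 1.15 for Junb and 1.22 for Jund, each with its interval above 1, and the intervals of Jun (0.928, 0.832 to 1.04) and Egr1 (1.32, 0.98 to 1.81) included 1. Atf3 was at 202 and 107 CPM (0.528, 0.396 to 0.707), but it was in 5.45% and 8.01% of thinned cells, or 12.2% and 15.3% unthinned, so no direction is read from it. In this class 1 of 10 genes was called higher and 0 lower, where 3.67% and 1.23% of 4793 genes were, and the median log2 ratio was 0.34 beside 0.06. The heat-shock genes, 10 chaperone genes that respond to handling and heat, also had ratios above 1 in this class, with a median log2 ratio of 0.82 and 2 of 9 called higher. Hsph1, a co-chaperone of Hsp70, was at 221 and 564 CPM (2.55, 2.05 to 3.21), and the smallest ratio was that of Hspa8, at 1222 and 1616 CPM (1.32, 1.2 to 1.46). Their part in the ratios of the immediate-early genes was not tested. In CD8 T cells the heat-shock median was 0.03, with 0 of 10 called higher and 1 lower (Hspb1, 0.478).

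In macrophages and monocytes all 14 values of the Fos and Jun families, Egr1 and Atf3 had ratios below 1, and Nr4a2 and Nr4a3 had ratios above 1. Nr4a1 was above 1 in macrophages and not in monocytes, where it was at 341 and 307 CPM (0.898, 0.796 to 1.01). In macrophages the directions held in the alternatives that gave a value, but in monocytes 5 of the 7 genes below 1 turned in at least 1 of them. In macrophages Fos was at 2193 and 1905 CPM (0.869, 0.821 to 0.919), Jun at 1755 and 1029 CPM (0.586, 0.544 to 0.631), and Egr1 at 449 and 307 CPM (0.684, 0.594 to 0.785). Junb (0.857), Jund (0.835) and Atf3 (0.902) were below 1 with their intervals, and Fosb (0.913, 0.809 to 1.03) was not. At equal depth Atf3, Jund and Fosb were not in fewer cells. Thinned, Atf3 was in 48.1% (42.0% to 54.3%, n = 268) and 51.4% (39.4% to 63.1%, n = 74). Jund was in 61.9% and 62.2%, and Fosb in 32.1% and 32.4%. Unthinned, the shares were 79.3% and 69.6% for Atf3, 93.1% and 87.3% for Jund, and 69.2% and 65.8% for Fosb. Nr4a1 was at 180 and 306 CPM (1.7, 1.46 to 1.98), Nr4a2 at 81.5 and 142 CPM (1.74, 1.39 to 2.19), and Nr4a3 at 64.3 and 159 CPM (2.47, 1.96 to 3.1). Nr4a1 stayed between 1.62 and 1.84 in 10 alternatives, while Nr4a3 was at 1.21 when each cell counted the same and had under 50 UMIs after thinning. The 3 receptors together made up 3.52% of the summed level of the 10 genes in PBS and 7.8% in cmExoaCD11b macrophages.

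In monocytes Fos was at 2184 and 1567 CPM (0.718, 0.683 to 0.754), Jun at 1514 and 1183 CPM (0.781, 0.737 to 0.828), and Egr1 at 225 and 145 CPM (0.644, 0.548 to 0.757). The other values were 320 and 293 CPM for Fosb (0.916, 0.809 to 1.04), 1335 and 1077 CPM for Junb (0.807, 0.758 to 0.858), 1140 and 956 CPM for Jund (0.839, 0.785 to 0.897) and 939 and 845 CPM for Atf3 (0.9, 0.838 to 0.968). A gate that asked for 1 more marker gave 1.05 for Fos, 1.21 for Fosb, 1.04 for Jund, 1.06 for Egr1 and 1.2 for Atf3. Thinning to 1000 UMIs gave 1.27 for Fosb, 1.43 for Egr1 and 1.11 for Atf3, so no direction is read for these 5 genes in monocytes. Jun and Junb stayed below 1, but at 0.975 and 0.995 in the stricter gate, where little difference was left. Nr4a2 was at 76.4 and 106 CPM (1.38, 1.09 to 1.76) and Nr4a3 at 33.5 and 80.0 CPM (2.39, 1.72 to 3.39, 46 and 168 UMIs). Nr4a3 was under 2-fold among cells of the highest UMI counts (1.79), with at most 10% mitochondrial UMIs (1.9) and in a looser gate (1.98), had under 50 UMIs after thinning, and was at 5.21 in the stricter gate and 4.67 when each cell counted the same. In macrophages and in monocytes 1 of 10 genes was called higher, Nr4a3 in both, and 0 lower. The shares over all genes were 4.16% higher and 3.87% lower of 7230 genes in macrophages, and 3.46% and 2.14% of 7048 in monocytes. The medians over the 10 genes were -0.18 and -0.2, beside 0.07 and 0.13 over all genes.

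In neutrophils the Fos genes had ratios above 1 and the Jun genes below 1. Fos was at 3984 CPM in PBS and 5069 CPM in cmExoaCD11b (1.27, 1.25 to 1.29), and Fosb at 601 and 713 CPM (1.19, 1.14 to 1.23). Among cells of the highest UMI counts alone Fos was at 1.04 and Fosb at 0.857. Their Jun partners were lower, with Jun at 5474 and 4172 CPM (0.762, 0.751 to 0.773), Junb at 7332 and 6262 CPM (0.854, 0.844 to 0.864) and Jund at 4792 and 3427 CPM (0.715, 0.704 to 0.727). Junb was at 0.949 after division by the median ratio of all genes. At equal depth it was not in fewer cells, with 91.2% (90.1% to 92.2%) and 92.4% (91.2% to 93.5%) thinned, or 95.2% and 94.2% unthinned. For Jun the thinned shares were 83.8% (82.4% to 85.1%) and 82.0% (80.3% to 83.7%). Atf3 was at 2080 and 1396 CPM (0.671, 0.655 to 0.688) and Egr1 at 2021 and 1817 CPM (0.899, 0.879 to 0.919). Nr4a1 was at 342 and 409 CPM (1.2, 1.14 to 1.26), and Nr4a3 at 76.6 and 114 CPM (1.49, 1.35 to 1.65), while Nr4a2 was at 25.7 and 17.4 CPM (0.677, 0.539 to 0.845). After thinning, Fos was in 76.0% (74.4% to 77.6%, n = 2919) and 82.5% (80.8% to 84.1%, n = 2070) of cells, and Atf3 in 63.1% (61.3% to 64.8%) and 55.7% (53.6% to 57.9%). Unthinned, the shares were 87.7% and 89.7%, and 77.3% and 71.7%. In neutrophils 0 of 10 genes were called in either direction, where 5.53% of 8806 genes were called higher and 7.6% lower. The median was -0.19, beside -0.15 over all genes. Egr1 was below 1 in all 11 alternatives, but at 0.999 after division by the median ratio of all genes. Its CPM is therefore not read as lower than that of genes at large. It was in fewer cells, with 65.3% (63.5% to 67.0%) and 59.3% (57.2% to 61.4%) thinned, or 79.1% and 72.7% unthinned.

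The neutrophils of the 2 libraries were of different makeup. Those with a UMI of Retnlg or Mmp8, genes of mature blood neutrophils, were 65.3% in PBS and 80.4% in cmExoaCD11b, a division chosen after the data were seen. The summed level was 25302 and 23099 CPM in them (0.913, 0.906 to 0.919) and 30051 and 25351 CPM in the rest (0.844, 0.831 to 0.856). Fos was at 4027 and 5264 CPM in the first (1.31, 1.29 to 1.33) and at 3884 and 3782 CPM in the rest (0.974, 0.937 to 1.01), and the difference between these ratios was not tested. Fosb, Nr4a1 and Nr4a3 were above 1 in both, and Jun, Junb, Jund and Atf3 were below 1 in both.

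In immature neutrophils, unlike the other neutrophils, Jun and Egr1 had ratios above 1, and the difference between the classes was not tested. Fos was at 1214 and 1511 CPM (1.24, 1.23 to 1.26), Jun at 1911 and 2244 CPM (1.17, 1.16 to 1.19), Fosb at 119 and 167 CPM (1.41, 1.34 to 1.48) and Egr1 at 255 and 384 CPM (1.5, 1.45 to 1.55). After division by the median ratio of all genes of the class, Fos was at 1.12 and Jun at 1.05. Jun in the other neutrophils was then at 0.847. Nr4a3 was at 8.46 and 15.6 CPM (1.84, 1.54 to 2.21), Nr4a2 at 9.12 and 5.35 CPM (0.587, 0.471 to 0.73) and Nr4a1 at 322 and 282 CPM (0.875, 0.847 to 0.904). Junb was at 1.05, Jund at 0.942 and Atf3 at 0.979 (0.933 to 1.03). Nr4a2 and Nr4a3 were found in 0.275% to 2.03% of thinned cells, or 5.76% to 14.1% unthinned. The median log2 ratio was 0.15, beside 0.16 over all genes, and 0 of 10 were called, where 3.13% of 10613 genes were called higher and 0.763% lower. In B cells the median was -0.03 beside 0.09 over all genes, and 0 of 9 genes were called (1.59% and 1.05% of 5599 genes). Fos was at 835 and 997 CPM in B cells (1.19, 1.09 to 1.31) and Fosb at 188 and 250 CPM (1.33, 1.1 to 1.6), while Nr4a1 was at 322 and 254 CPM (0.788, 0.67 to 0.926) and Nr4a3 at 52.7 and 30.5 CPM (0.579, 0.365 to 0.905, 54 and 34 UMIs). The intervals of Jun (0.982), Junb (0.941), Jund (1.05), Egr1 (0.898) and Atf3 (1.13) included 1 in B cells.

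Nr4a3 was thus above 1 in 7 of 8 classes, with its interval above 1 in 6, and below 1 in B cells. Fosb was above 1 in 6 classes and in no class was its interval below 1. Atf3 was above 1 in 2 of 8 classes, and its interval lay above 1 in CD8 T cells alone, where the ratio was 1.08 among cells with at most 10% mitochondrial UMIs.

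Over all kept cells the 10 genes summed to 11403 CPM in PBS and 8772 CPM in cmExoaCD11b, a ratio of 0.769, and Fos was at 1986 and 1839 CPM (0.926) and Atf3 at 733 and 382 CPM (0.52). Over the cells of the 8 classes alone the sum was 12016 and 9568 CPM (0.796), Fos 2044 and 2025 CPM (0.991) and Atf3 747 and 371 CPM (0.496). With the 8 classes weighted by the same shares of UMIs in both libraries, the sum was 10653 and 10424 CPM (0.979), Fos 1839 and 2224 CPM (1.21) and Atf3 604 and 454 CPM (0.752). Neutrophils outside the immature gate, the class with the highest level, were 45.0% of PBS and 31.6% of cmExoaCD11b cells. A difference over all cells was therefore not read as a difference within cells, and for Fos its ratio was below 1 although the interval lay above 1 within 5 of the classes. Nr4a2 (1.42 and 1.43) and Nr4a3 (1.34 and 1.73) were higher in both sums.

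Free RNA can add to these levels in lymphocytes. Neutrophil marker UMIs in T and B cells were set against their level in empty droplets. This gave a free share of 2.64% of UMIs in PBS and 2.79% in cmExoaCD11b. Cells that also passed the neutrophil gate had already been left out of these classes. The gate thus limits both shares, and by how much it lowers them was not tested. At those shares free RNA would give 349 and 289 CPM of the 10 genes, 8.69% of the level in PBS CD8 T cells and 4.29% of that in cmExoaCD11b. The part was largest for Atf3 (30.3% and 10.6% in CD8 T cells, 34.9% and 21.2% in CD4 T cells) and Egr1 (29.6% and 11.0% in CD8 T cells), and smallest for Nr4a2 (0.364% and 0.292%). Levels of Atf3 in lymphocytes are for this reason not ordered among the T and B cell classes.

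The plot of list medians sets the members beside other genes of the program. Of the other immediate-early and feedback genes, 21 genes such as the phosphatase genes Dusp1 and Dusp2 and the mRNA decay factor Zfp36, 7 of 159 gene and class pairs with 50 UMIs were called higher and 4 lower. The shares over all genes, 3.72% higher and 2.78% lower of 55641 pairs, stand beside this count and those of the lists below. The median log2 ratio of these 21 genes ranged from -0.25 in neutrophils to 0.65 in CD8 T cells. There 4 of 19 were called higher, beside 4.7% of all genes. The largest ratio was that of Egr3, an Egr gene induced by the antigen receptor, in CD4 T cells, at 4.16 and 57.0 CPM (13.7, 4.5 to 68.2, 3 and 67 UMIs), and Egr2 was also called higher there, at 8.31 and 38.3 CPM (4.61, 1.96 to 13.2). Klf4, a zinc-finger factor that holds T cells at rest, had the largest ratio in CD8 T cells at 12.6 and 44.0 CPM (3.49, 1.83 to 7.33, 11 and 67 UMIs), and Myc lowest at 105 and 74.2 CPM (0.704, 0.53 to 0.938). In macrophages 2 of 20 were called lower, beside 3.87% of all genes there. These were Myc at 45.5 and 16.7 CPM (0.366, 0.19 to 0.645) and Egr2 at 47.4 and 20.5 CPM (0.433, 0.241 to 0.725). Dusp2 had the largest ratio of this list in macrophages, at 70.4 and 133 CPM (1.89). Of the other AP-1 family genes, 2 of 43 pairs were called higher and 1 lower. In CD8 T cells Batf, the AP-1 partner needed for effector T cells, was at 53.8 and 136 CPM (2.52, 1.83 to 3.54) and Atf4 had the smallest ratio there, 1.07. In CD4 T cells Jdp2, a repressor that pairs with Jun proteins, was at 73.4 and 10.2 CPM (0.139, 0.0676 to 0.264).

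The upstream regulators, 12 kinases and factors such as Srf and Creb1, had 2 of 80 pairs called higher and 0 lower, with medians from -0.12 in macrophages to 0.41 in CD8 T cells. Map3k8, a kinase upstream of ERK, was at 42.8 and 103 CPM in T cells with neither or both co-receptors (2.41, 1.46 to 4.21), and the smallest ratio was that of Mapk3 in CD8 T cells, at 30.9 and 16.4 CPM (0.531, 0.295 to 0.95). Over the 8 classes the heat-shock genes had 4 of 75 pairs called higher and 1 lower, beside the same 3.72% and 2.78% over all genes. The NF-kB and cytokine genes had 1 of 47 called higher and 11 lower, of which 4 of 6 in macrophages, where the median was -1.06. Icam1, an adhesion gene, had the largest ratio, in CD8 T cells at 142 and 298 CPM (2.1, 1.72 to 2.58). Cxcl2 had the smallest, in T cells with neither or both co-receptors at 1165 and 282 CPM (0.242, 0.21 to 0.28). Several of the lower pairs were Cxcl2 or Ccl3 in T or B cells. Neutrophils held 38382 and 28616 CPM of Cxcl2, and the part of free RNA in these lymphocyte values was not tested. Cxcl2, a neutrophil chemokine, was at 7205 and 3195 CPM in macrophages (0.443, 0.425 to 0.462), and Tnf was at 1006 and 370 CPM in neutrophils (0.367, 0.351 to 0.384). The 8 interferon-stimulated genes, by contrast, were called higher in 50 of 61 pairs and lower in 0, with medians from 0.73 in CD4 T cells to 2.49 in immature neutrophils. Their largest and smallest ratios were both in T cells with neither or both co-receptors, with Usp18 at 4.75 and 78.7 CPM (16.6, 4.45 to 139, 2 and 87 UMIs) and Ifit2 at 359 and 413 CPM (1.15, 0.956 to 1.39). In CD8 T cells all 8 were called higher, from Ifit2 (2.01) to Rsad2 at 20.6 and 202 CPM (9.81, 6.1 to 16.8). In macrophages, where the Fos and Jun families had ratios below 1, 7 of 8 interferon-stimulated genes were called higher.

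**Figure D5:**
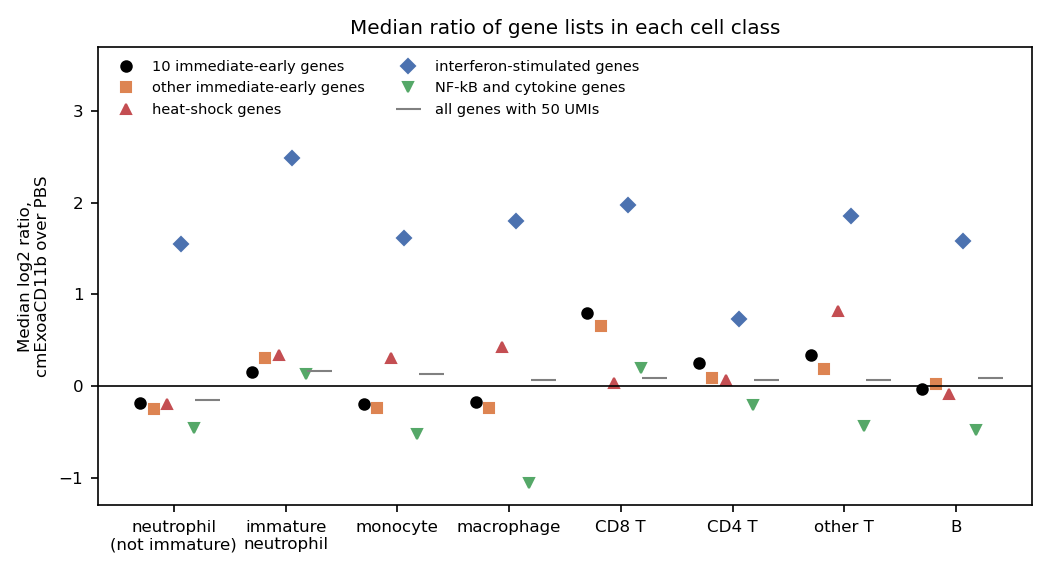
Median log2 ratio of CPM, cmExoaCD11b over PBS, for the 10 immediate-early genes and for 4 other gene lists in 8 cell classes, with grey bars for all genes with 50 UMIs, 1 library per treatment. The 10 genes reach 0.8 in CD8 T cells, where the heat-shock genes are at 0.03 and the interferon-stimulated genes at 1.98.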

How the data were processed

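Single-cell RNA-seq of 2 libraries (PBS and cmExoaCD11b, 10x 3′ v3.1 chemistry), each pooled from 3 mice, gave the data. Tumors were digested with collagenase IV at 37 °C for 30 min and passed through a 70 µm mesh. The authors deposited raw UMI counts for every droplet, made with Cell Ranger per the file headers. The genome build is not given in the sources used here.

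Barcodes were kept above a ranked-UMI limit, or from 500 UMIs up where a test set them apart from empty droplets (multinomial test, 10000 simulations, false discovery rate 0.01). Cells needed 200 genes and no more than 20% of UMIs from mitochondria, and the highest Scrublet scores (scanpy 1.11.5) were removed, at 0.8% per 1000 cells. Of 7696 and 7892 called barcodes, 6835 and 7075 were kept. A cell passed a class gate with UMIs of at least 2 markers (3 for monocytes) and more marker UMIs than free RNA would give at an assumed share of 5%. The share and the monocyte minimum were set from marker counts before levels of the 10 genes were tabulated. Classes under 50 cells in either library were left out of the main comparisons, and some of their values are given at the end.

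Levels are summed UMIs per class as CPM with exact Poisson intervals, ratios carry exact conditional intervals and shares Clopper-Pearson intervals, at 95%. With 1 library per treatment there is no test across samples: intervals measure counting only, and PCR duplicates are already collapsed by the UMI. Likeness used log2(CPM + 1). The scripts were tested on simulated data. The rule for named genes took the 10 genes in every class, the largest and smallest ratio of each list, and the 3 most correlated genes for Fos, Egr1, Atf3 and Nr4a1; other list genes named in the text were chosen after their values were seen. The members and lists were chosen with earlier results of these data known. No per-sample column was left unused. Alternatives changed the cell calling, the gates, the free RNA share, the scaling, the depth and the UMI minimum. Some items are not reported here.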

Additional observations from a re-analysis of the deposited data

Results flagged for a closer look

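For 9 of the 10 genes the counting interval of the ratio of cmExoaCD11b to PBS lay above 1 in at least 1 class and below 1 in another, the exception being Fosb, whose intervals in macrophages and monocytes included 1, and with 1 library per treatment the difference between classes was not tested. The ratio in CD8 T cells was 2.22 times that in monocytes for Fos, 2.39 times for Junb and 3.54 times for Egr1. It was 2.3 times that in macrophages for Jun, 2.1 times that in neutrophils for Jund, 3.08 times that in T cells with neither or both co-receptors for Atf3, and 4.59 times that in B cells for Nr4a3. For Nr4a1 the ratio in macrophages was 2.16 times that in B cells. For Nr4a2 the ratio in T cells with neither or both co-receptors was 5.88 times that in immature neutrophils. The value for Atf3 rests on a class where its share of thinned cells went the other way. Those for Fos and Egr1 rest on monocytes, where no direction is read for either gene. That for Junb also rests on monocytes, where its ratio was 0.995 in the stricter gate. After thinning to 1000 UMIs, Egr1 was at 1.43 in monocytes and 1.36 in CD8 T cells. Dendritic cells, a class of 39 and 85 cells, were left out of the main comparisons. In them Fos was at 336 CPM in PBS and 1149 CPM in cmExoaCD11b, a ratio of 3.42 (2.91 to 4.04).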

How the results depend on the processing

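The main values were 6 pairs higher, 0 lower and a median log2 ratio of 0.2, and neutrophils had the highest summed level in every alternative. With the ranked-UMI limit alone, which left 30 pairs in 3 classes, 0 pairs were higher and the median was -0.25. The mean of single-cell CPM gave 3 higher and 1 lower (Nr4a2 in immature neutrophils), thinning to 1000 UMIs gave 3 higher of 68, and subtraction of 10% free RNA gave 11 higher of 75. A gate of 1 more marker gave 1 lower (Atf3 in T cells with neither or both co-receptors), as did an assumed free RNA share of 10% (Nr4a2 in neutrophils). The causes were not tested beyond the fewer pairs. The other alternatives gave 4 to 7 higher. Nr4a2 in T cells with neither or both co-receptors stayed at least 2-fold in 10 of 10 alternatives, Nr4a3 in macrophages in 8 of 9, Nr4a3 in CD8 T cells in 8 of 10, Nr4a3 in monocytes and Fosb in CD8 T cells in 7 of 10, and Egr1 in CD8 T cells in 4 of 9. A free RNA share of 2.5% and the subsets of CD8 T cells and neutrophils were chosen after seeing the data. No paired analysis was possible because each treatment is 1 library of different pooled mice. Depth limits Nr4a2 and Nr4a3, with 23 and 24 UMIs of Nr4a2 in B cells.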

Other observations

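Classes of fewer than 50 cells in a library were left out of the main comparisons, and their values, chosen after they were seen, are given without explanation. In NK cells (23 PBS and 88 cmExoaCD11b cells) Atf3 was at 701 and 270 CPM (0.386, 0.271 to 0.553), and Fos at 2306 and 1631 CPM (0.707, 0.596 to 0.843), below 1 where the CD8 T cells were above. Thinned, Atf3 was in 13.6% (2.91% to 34.9%, n = 22) and 12.9% (6.64% to 22.0%, n = 85) of NK cells, or 39.1% and 30.7% unthinned. No direction is read from Atf3 there. In plasma cells (49 and 127) Atf3 was at 86.8 and 20.3 CPM (0.234, 0.163 to 0.332), and Junb at 707 and 409 CPM (0.579, 0.525 to 0.638). In epithelial cells (41 and 30) Junb was at 979 and 562 CPM (0.574, 0.501 to 0.657), Fosb at 199 and 66.7 CPM (0.336, 0.227 to 0.485), and Nr4a1 had 42 UMIs in PBS and 1 in cmExoaCD11b. In dendritic cells Nr4a2 was at 126 and 219 CPM (1.74, 1.32 to 2.34) and Nr4a3 at 296 and 205 CPM (0.694, 0.562 to 0.858).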
